A study of Mus musculus with 7 samples.

Results

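The bile acid and organic anion transporters described here are 10 genes of mouse liver, chosen by symbol from the 21706 genes of a hepatic TPM table. TPM is a length-corrected share of the transcripts of a library, so levels can be set side by side between genes. Livers came from 8-week-old male C57BL/6 mice that received intraperitoneal injections for 2 weeks, either of a control oligonucleotide (control oligo, 4 libraries) or of a synthetic oligonucleotide with the sequence of tsRNA-Glu-CTC, a small RNA derived from the glutamate transfer RNA (oligo-1, 3 libraries). According to the study, all mice were kept on a semisynthetic low-fat, low-cholesterol diet and fasted before tissue collection. Per the study, each library is from a single mouse. The study gave the oligonucleotide to raise hepatic tsRNA-Glu-CTC, and the comparison below asks how transcripts of the transporters differed between the groups.

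Hepatocytes are polarised cells. On the blood-facing (basolateral) side, the sodium-dependent carrier NTCP, encoded by Slc10a1, takes up conjugated bile acids, and organic anion transporting polypeptides (OATPs), encoded by Slco genes, take up unconjugated bile acids, bilirubin, hormones and drugs. On the bile-facing (canalicular) side, ABC transporters use ATP to move bile acids (Abcb11), phospholipid (Abcb4) and conjugated organic anions (Abcc2) into bile, with the flippase encoded by Atp8b1 protecting the membrane. Abcc3 exports conjugates back to blood, a route best known from livers with impaired bile flow.

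All 10 genes were detected in all 7 libraries and all passed the filter for testing (at least 3 libraries with a TPM of 1 or more). By mean TPM over the 7 libraries the order was Slc10a1 (456.8), Slco1b2 (270.2), Abcb11 (102.0), Abcc2 (90.2), Slco1a1 (87.9), Abcb4 (66.8), Slco2b1 (34.9), Slco1a4 (30.2), Abcc3 (17.3) and Atp8b1 (4.38). Neighbours in this order overlapped in their library values at all but 2 steps. The lowest Slco1b2 value (163.4 TPM) lay above the highest Abcb11 value (139.2 TPM), and the lowest Abcc3 value (9.80 TPM) lay above the highest Atp8b1 value (6.02 TPM).

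Testing used limma on log2(TPM + 1) over 10455 genes, and every log2 fold change below is oligo-1 minus control oligo on that scale with its standard error (SE). After Benjamini-Hochberg adjustment 0 of the 10 transporters passed 0.05 (limma), and 0.0% of all tested genes did, the smallest adjusted p of any gene being 0.202. At an unadjusted p below 0.05, Abcc3, Slco1a4 and Abcb4 were lower with oligo-1 (3 of 10, against 4.25% of all tested genes) and Slc10a1 was higher (1 of 10, against 1.81%). In Abcc3 all oligo-1 values lay below all controls (1 of 10, against 4.98% of all tested genes), and in 0 of 10 all lay above (2.0% of all tested genes). A stricter rule without adjustment (p below 0.01 and a fold over 1.5), taken from the methods of the study, was met by Abcc3 in the lower direction (1 of 10, against 0.832%) and by 0 of 10 in the higher direction (0.641%). The median log2 fold change of the 10 transporters was 0.014, with 5 fitted higher and 5 fitted lower, while the median of all tested genes was -0.16. Scaling each library by its median moved the median of all genes to -0.022 and that of the transporters to 0.16, with 7 fitted higher and 3 fitted lower.

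The controls were not alike. Over the tested genes, controls 1 and 4 correlated with each other at 0.988 and with the other 5 libraries at 0.928 to 0.947, and the first principal component, with 62.7% of the variance, set them apart from the rest. They were therefore left out in a second fit (2 controls against 3 oligo-1 libraries), given beside the results as "without controls 1 and 4". In that fit 0 of 10 transporters passed the adjusted threshold, 0 were higher and 1, Abcc3, was lower at an unadjusted p below 0.05, against 6.99% and 2.81% of the 9872 genes tested. Of the hepatocyte markers, 8 of 8 were present in every library, and their TPM summed to 75598 to 87038 (control oligo) or 85041 to 98693 (oligo-1).

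**Figure D1:**
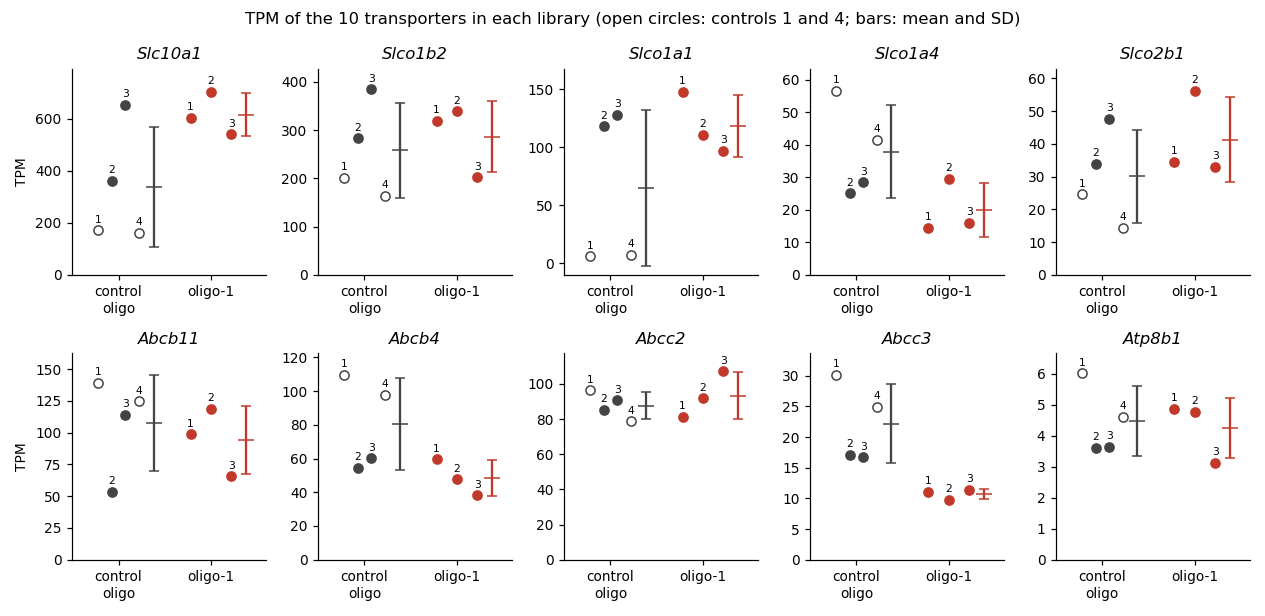
TPM (vertical axis, linear from about 0) of each transporter in each library, with controls on the left and oligo-1 on the right of each panel. Numbers are replicate numbers, open circles are controls 1 and 4, and bars give the mean and SD (n = 4 and n = 3). The 3 Abcc3 values with oligo-1 (9.80 to 11.4 TPM) lie below all controls (16.7 to 30.1 TPM), while in Slco1a1 the low points are controls 1 and 4 (5.82 and 7.45 TPM).

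Abcc3 (ENSMUSG00000020865.16, chr11:94343295-94392997 in mm10) encodes MRP3, which pumps bile acid and bilirubin conjugates across the basolateral membrane into blood. It was the transporter of smallest p. Controls 1 to 4 were at 30.1, 17.1, 16.7 and 24.9 TPM, and the oligo-1 libraries at 11.1, 9.80 and 11.4 TPM. The highest oligo-1 value lay below the lowest control, and the oligo-1 values spread little (10.7 ± 0.84 TPM, SD, n = 3) compared with the controls (22.2 ± 6.49 TPM, SD, n = 4). The log2 fold change was -0.94 (SE 0.24, unadjusted p = 0.00305, limma adjusted p = 0.450). Without controls 1 and 4 it was -0.61 (SE 0.18, unadjusted p = 0.00875, limma adjusted p = 0.307). With any 1 library left out it lay between -1.06 and -0.79.

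MRP3 is also made by bile duct cells (cholangiocytes). Cholangiocyte markers were scarce: 3 of 7 passed the filter, up to 4 of 7 were at 0 in a library, and their TPM summed to 22.3 to 52.6 (control oligo) or 23.0 to 54.8 (oligo-1). Most of each sum was Spp1, at 20.2 to 48.0 TPM (control oligo) or 20.8 to 49.4 TPM (oligo-1). A part of cholangiocyte content in the Abcc3 difference was not tested. In whole liver, fewer cells of a type and less RNA per cell cannot be told apart. Of all tested genes, those whose log2(TPM + 1) followed Abcc3 most closely over the 7 libraries were Ppa1 (Pearson r = 0.988), Ablim3 (0.980) and Chchd2 (0.980), given as a description of 7 points of which controls 1 and 4 make up much of the spread.

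Among the uptake carriers, Slc10a1 (ENSMUSG00000021135.8, chr12:80953183-80968705) had the highest level. Its TPM in controls 1 to 4 was 171.3, 361.1, 655.1 and 160.6, and 605.0, 704.7 and 540.2 in oligo-1 libraries 1 to 3. Controls 1, 2 and 4 lay below all oligo-1 libraries, and control 3 lay among them. The log2 fold change was 1.11 (SE 0.44, 95% interval 0.12 to 2.09, unadjusted p = 0.0318, limma adjusted p = 0.768). Without controls 1 and 4 the difference was 0.33 (SE 0.25, unadjusted p = 0.210). Without control 3, the only control among the oligo-1 values, it was 1.51 (unadjusted p = 6.79e-04, limma adjusted p = 0.104). Over the fits with 1 library left out, the unadjusted p ran from 6.79e-04 to 0.0918. The genes closest to Slc10a1 in log2(TPM + 1) over the 7 libraries were Rdh16 (Pearson r = 0.987), Cmah (0.987) and Cnmd (0.986), a description only.

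The OATP genes Slco1b2, Slco1a4 and Slco1a1 lie side by side on chromosome 6, in the order Slco1b2 (chr6:141629518-141686646, plus strand), Slco1a4 (chr6:141805440-141856199, minus strand) and Slco1a1 (chr6:141907282-141946962, minus strand), followed by Slco1a6 and Slco1a5. The neighbours differed in their pattern over the libraries. Slco1a5 was listed at 0 in all 7 libraries and Slco1a6 was at 0.20 TPM or less.

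Slco1a1 (ENSMUSG00000041698.11) encodes OATP1A1, a carrier of bile acids and steroid conjugates that is more abundant in male than in female mouse liver. It had the widest range of the 10 genes, with a highest value 25.4 times the lowest. Controls 1 to 4 were at 5.82, 118.1, 128.2 and 7.45 TPM, and the oligo-1 libraries at 148.0, 110.7 and 96.8 TPM. The 2 low values were controls 1 and 4, and controls 2 and 3 lay within the range of oligo-1. The log2 fold change was 1.94 (SE 1.02, 95% interval -0.36 to 4.24, unadjusted p = 0.0895, limma adjusted p = 0.768) and changed sign to -0.076 (SE 0.20, unadjusted p = 0.712) without controls 1 and 4.

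Slco1a4 (ENSMUSG00000030237.14), which encodes the related carrier OATP1A4, ran the other way. Controls 1 to 4 were at 56.5, 25.1, 28.4 and 41.6 TPM, and the oligo-1 libraries at 14.4, 29.5 and 16.0 TPM. Controls 1 and 4 were the highest, oligo-1 replicates 1 and 3 the lowest, and oligo-1 replicate 2 lay above controls 2 and 3. The log2 fold change was -0.89 (SE 0.33, 95% interval -1.63 to -0.15, unadjusted p = 0.0238, limma adjusted p = 0.767), and -0.47 (SE 0.29, unadjusted p = 0.140) without controls 1 and 4. Slco1a1 and Slco1a4 transcripts share sequence with related genes. Of the runs of 31 bases in each gene's transcripts, 5.23% for Slco1a1 and 8.37% for Slco1a4 occur in any other gene. The largest shares were 3.31% of the Slco1a1 runs with Slco1a4 and 5.66% of the Slco1a4 runs with Slco1a5. A small part of the reads of Slco1a1 and Slco1a4 may thus be divided between related genes. The genes closest to Slco1a4 over the 7 libraries were Slc26a1 (Pearson r = 0.998), a sulfate and anion exchanger, Cnot11 (0.997) and Snx13 (0.994), a description only.

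**Figure D2:**
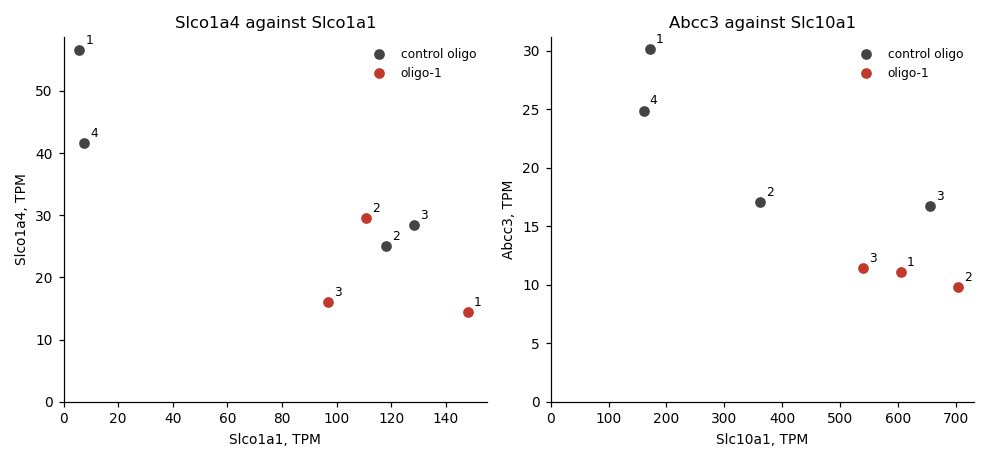
TPM of Slco1a4 against Slco1a1 (left) and of Abcc3 against Slc10a1 (right), 1 point per library, labelled by replicate number. Controls 1 and 4 sit at the upper left of both panels (Slco1a1 at 5.82 and 7.45 TPM, Slc10a1 at 171.3 and 160.6 TPM), and in the right panel the 3 oligo-1 points lie below control 3 in Abcc3 at like Slc10a1 levels.

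Slco1b2 (ENSMUSG00000030236.10) encodes OATP1B2, a liver-specific carrier of unconjugated bile acids and bilirubin. Values in controls 1 to 4 were 200.5, 283.1, 384.7 and 163.4 TPM, and those with oligo-1 were 319.2, 339.1 and 201.8 TPM. The groups overlapped over most of their range, and oligo-1 replicate 3 lay next to control 1. Fitted, this gave a log2 fold change of 0.19 (SE 0.30, 95% interval -0.49 to 0.88, unadjusted p = 0.541), and -0.24 without controls 1 and 4.

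Slco2b1 (ENSMUSG00000030737.17, chr7:99657804-99711340), encoding the broad organic anion carrier OATP2B1, was at 24.5, 33.8, 47.7 and 14.4 TPM in controls 1 to 4 and at 34.6, 56.2 and 33.0 TPM with oligo-1. Controls 1 and 4 were again the lowest. This gave a log2 fold change of 0.52 (SE 0.37, 95% interval -0.31 to 1.35, unadjusted p = 0.190), and it was -0.0049 without controls 1 and 4. Antisense genes overlap Slco2b1 and Abcb11, and the sources used here do not say whether reads were assigned by strand.

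Summed over the 5 uptake genes, TPM was 458.7, 821.2, 1244 and 387.3 in controls 1 to 4 and 1121, 1240 and 887.7 with oligo-1, with control 3 the highest of all. Slc10a1 made up 37.3%, 44.0%, 52.7% and 41.5% of that sum in controls 1 to 4, and 54.0%, 56.8% and 60.9% with oligo-1. The groups did not overlap in this share, although control 3 and oligo-1 replicate 1 were close. The ratio of Slco1a1 to Slco1a4 was 0.103 and 0.18 in controls 1 and 4, 4.70 and 4.51 in controls 2 and 3, and 10.3, 3.75 and 6.06 with oligo-1.

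The sequence upstream of the uptake genes is shown for Slc10a1 and for the neighbours Slco1b2 and Slco1a1. Each run holds the 250 bases before the annotated start (RefSeq, build GRCm38.p6), 5′ to 3′ on the strand of the gene, and positions count back from -1 at the last base. RefSeq promoters were matched for 8 of the 10 genes. Capitals mark matches, on either strand, to TTCNNNGAA (the site of STAT5, a transcription factor that carries growth hormone signals), GTTAAT (a core of the HNF1 site), AGGTCA (the core hexamer of nuclear receptor sites, which overlaps the next motif) or an inverted repeat of AGGTCA with 1 base between the copies and at most 1 mismatch, the arrangement (IR1) that the bile acid receptor FXR prefers. The Slc10a1 run (chr12:80968706-80968955, minus strand) holds a STAT5 match at -53, that of Slco1b2 (chr6:141629268-141629517, plus strand) holds a STAT5 match at -206, an IR1 match at -88 and an HNF1 match at -66, and that of Slco1a1 (chr6:141946963-141947212, minus strand) holds AGGTCA in both directions.
Slc10a1: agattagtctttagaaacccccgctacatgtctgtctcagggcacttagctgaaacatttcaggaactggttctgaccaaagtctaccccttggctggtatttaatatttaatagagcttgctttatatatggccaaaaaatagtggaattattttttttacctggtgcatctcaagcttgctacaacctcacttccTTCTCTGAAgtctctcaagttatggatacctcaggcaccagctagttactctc
Slco1b2: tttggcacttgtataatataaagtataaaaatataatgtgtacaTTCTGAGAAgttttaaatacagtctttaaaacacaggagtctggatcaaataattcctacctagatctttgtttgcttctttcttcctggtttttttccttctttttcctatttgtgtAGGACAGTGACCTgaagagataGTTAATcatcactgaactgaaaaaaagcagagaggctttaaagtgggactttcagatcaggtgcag
Slco1a1: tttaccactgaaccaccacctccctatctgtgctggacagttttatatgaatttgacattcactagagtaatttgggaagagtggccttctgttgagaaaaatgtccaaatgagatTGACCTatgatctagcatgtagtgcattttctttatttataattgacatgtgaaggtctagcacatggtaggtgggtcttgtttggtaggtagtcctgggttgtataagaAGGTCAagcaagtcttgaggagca
Of 32851 promoter windows of this length, 7.02% held the STAT5 motif, 6.43% the HNF1 core and 14.0% the AGGTCA hexamer, while 0.0791% held the IR1 arrangement. The 8 matched genes had 11 such windows (3 for Slco2b1 and 2 for Slc10a1), of which 3 held the STAT5 motif, 1 the HNF1 core, 5 the hexamer and 2 the IR1 arrangement. The STAT5 match of Slco2b1 and the hexamer of Slc10a1 lie in windows of further start sites that are not shown. TGACNNNGC, the core of the antioxidant response element that NRF2 binds, was searched as well and stood in 10.2% of all windows and in 1 of the 11, that of Abcc2. A match describes the letters in the window and was not tested for binding.

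Of the canalicular genes, Abcb11 (ENSMUSG00000027048.15, chr2:69238282-69342616) encodes the bile salt export pump, the main exporter of conjugated bile acids into bile. Controls 1 to 4 were at 139.2, 53.3, 114.2 and 124.6 TPM, and the oligo-1 libraries at 98.7, 118.7 and 65.5 TPM. The groups overlapped, with the lowest value in control 2. For Abcb11 the log2 fold change was -0.15 (SE 0.34, 95% interval -0.91 to 0.61, unadjusted p = 0.676), and it turned positive without controls 1 and 4 (0.23) and with median scaling (0.011). The ratio of Slc10a1 to Abcb11, the main carriers into and out of the hepatocyte, was 1.23 and 1.29 in controls 1 and 4, 6.78 and 5.74 in controls 2 and 3, and 6.13, 5.94 and 8.25 with oligo-1. Control 2 lay within the oligo-1 range and control 3 just below it. The 250 bases upstream of Abcb11 (chr2:69342617-69342866, minus strand, RefSeq GRCm38.p6), a gene known as a target of FXR, are shown because they hold the other IR1 match, in capitals at -63.
Abcb11: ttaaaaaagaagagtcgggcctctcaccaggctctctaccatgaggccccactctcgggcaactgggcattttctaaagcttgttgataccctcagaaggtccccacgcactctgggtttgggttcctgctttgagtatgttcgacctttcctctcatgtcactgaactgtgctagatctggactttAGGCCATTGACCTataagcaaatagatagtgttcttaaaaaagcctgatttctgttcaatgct
Of the 8 genes with a matched promoter, Abcb11 and Slco1b2 were thus those with the IR1 letters in a window. Their log2 fold changes (-0.15 and 0.19) were both smaller in size than their SE, and a part of FXR in these levels was not tested.

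Abcb4 (ENSMUSG00000042476.12, chr5:8893717-8959231) encodes MDR2, the floppase that supplies phosphatidylcholine to bile. Levels in controls 1 to 4 were 109.7, 54.6, 60.0 and 97.8 TPM, and those with oligo-1 were 59.6, 47.8 and 38.2 TPM. Controls 1 and 4 were well above the rest, and oligo-1 replicate 1 lay between controls 2 and 3. For Abcb4 the log2 fold change was -0.68 (SE 0.28, 95% interval -1.31 to -0.052, unadjusted p = 0.0366, limma adjusted p = 0.768), and -0.26 (SE 0.21, unadjusted p = 0.249) without controls 1 and 4. Of the 31-base runs of Abcb4 transcripts, 5.62% occur in another gene, mostly Abcb1a. The ratio of Abcb4 to Abcb11 was 0.53 to 1.02 in controls and 0.40 to 0.60 with oligo-1.

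Abcc2 (ENSMUSG00000025194.5, chr19:43782192-43840740), encoding MRP2, the canalicular pump for bilirubin glucuronides and glutathione conjugates, varied least. Controls 1 to 4 were at 96.3, 85.4, 90.6 and 78.7 TPM, and the oligo-1 libraries at 81.1, 91.9 and 107.2 TPM. The groups overlapped and the highest value over all libraries was 1.36 times the lowest. Its log2 fold change was 0.084 (SE 0.16, 95% interval -0.28 to 0.45, unadjusted p = 0.617), and 0.077 without controls 1 and 4.

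Atp8b1 (ENSMUSG00000039529.9, chr18:64528967-64661267) encodes a flippase that returns phosphatidylserine to the inner leaflet of the canalicular membrane. It had the lowest level of the 10 genes, at 6.02, 3.61, 3.65 and 4.61 TPM in controls 1 to 4 and 4.87, 4.78 and 3.12 TPM with oligo-1. The groups overlapped throughout. Its log2 fold change was -0.056 (SE 0.24, 95% interval -0.60 to 0.49, unadjusted p = 0.824), and it was positive without controls 1 and 4 (0.16) and with median scaling (0.074). Summed over Abcb11, Abcb4, Abcc2 and Abcc3, export genes ranged from 210.4 to 375.4 TPM (control oligo) and from 222.3 to 268.1 TPM (oligo-1).

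**Figure D3:**
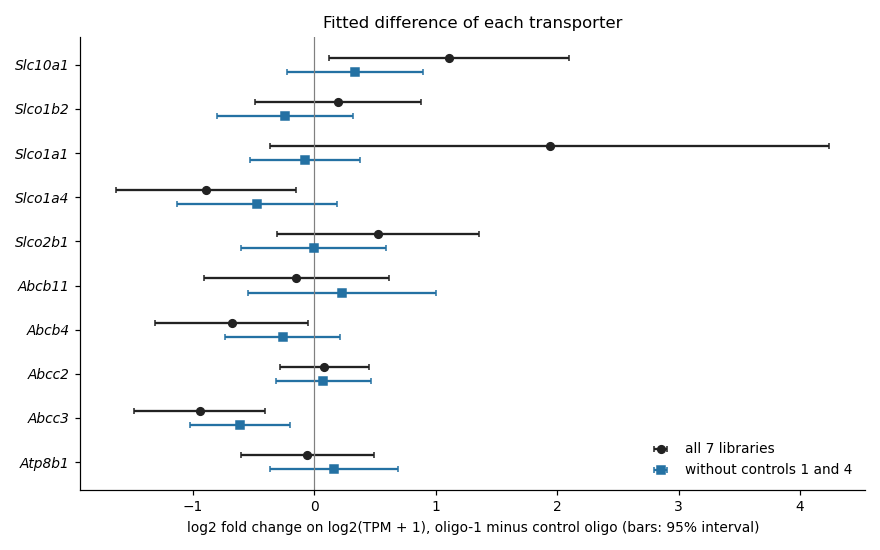
Log2 fold change of each transporter on the log2(TPM + 1) scale (horizontal axis, oligo-1 minus control oligo) with its 95% interval, from all 7 libraries (circles) and without controls 1 and 4 (squares). The Abcc3 interval excludes 0 in both fits (-1.48 to -0.41 from all libraries), the Slco1a1 estimate moves from 1.94 to -0.076, and the small differences of Abcb11 and Atp8b1 are negative in the first fit, positive in the second, and positive with median scaling.

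Lists of genes that work with these transporters were counted in the same fit. Beside the list counts below, 4.25% of all tested genes were lower and 1.81% higher at an unadjusted p below 0.05. Of 24 other hepatobiliary transporter genes, 16 were tested, 0 passed the adjusted threshold, 2 were lower and 0 higher at an unadjusted p below 0.05. Their median difference was -0.11 on the log2 scale. The 2 were Slc10a2, the apical sodium-dependent bile acid carrier of bile ducts and ileum (-0.75, SE 0.25, unadjusted p = 0.0155), and Abcb1a, a multidrug exporter (-0.60, SE 0.24, unadjusted p = 0.0341). Slc10a2 was at 11.3, 10.7, 8.54 and 15.0 TPM in controls 1 to 4 and at 4.73, 5.85 and 8.61 TPM with oligo-1, so that oligo-1 replicate 3 lay just above control 3. Its log2 fold change without controls 1 and 4 was -0.54 (unadjusted p = 0.0649), and Abcb1a was not tested there.

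Other genes for export into blood, named after their values were seen, were not all alike. Abcc1, Abcc4, Abcc5 and Slc51b were highest in controls 1 and 4, whereas Slc51a and Abcc6 were not. Abcc5 had 2.54 and 2.67 TPM in controls 1 and 4, against 0.47 to 0.91 TPM elsewhere. Abcc1 had 0.82 and 0.93 TPM there, against 0.19 TPM or less elsewhere, and neither was tested. Abcc4, which encodes the basolateral exporter MRP4, had 2.18 and 2.26 TPM in controls 1 and 4, against 0.34 TPM or less elsewhere, and was not tested because it passed the filter in too few libraries. Slc51b, a subunit of the basolateral exporter OST, had 4.15 and 4.14 TPM there, against 0.12 to 1.55 TPM elsewhere. Slc51a, the other OST subunit, was at 0.42 TPM or less in every library and was not higher in controls 1 and 4. Abcc6, a basolateral transporter of higher level, was lowest in controls 1 and 4 (33.5 and 28.5 TPM, against 38.3 to 46.5 TPM elsewhere).

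Of 12 flippase, anchoring and trafficking partners, all were tested and 1 was lower at an unadjusted p below 0.05, Vipas39, which acts with Vps33b in apical membrane sorting (-0.69, SE 0.26, unadjusted p = 0.0266, and -0.60 with unadjusted p = 0.0797 without controls 1 and 4). Their median was -0.12. Tmem30a, the subunit that Atp8b1 needs to leave the endoplasmic reticulum, ranged from 40.7 to 65.3 TPM (control oligo) and from 43.7 to 55.0 TPM (oligo-1), and is named after its values were seen.

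Of 15 genes of bile acid synthesis and conjugation, 1 was higher and 3 were lower at an unadjusted p below 0.05, and the list median was -0.069. Cyp8b1, the 12-alpha-hydroxylase that makes cholic acid, was at 124.0, 115.5 and 157.2 TPM with oligo-1, above the controls at 49.8, 54.0, 79.8 and 50.5 TPM (log2 fold change 1.18, SE 0.21, limma adjusted p = 0.202). Cyp7a1, which catalyses the limiting step from cholesterol to bile acids, was at 22.0, 21.3 and 18.7 TPM with oligo-1, below the controls at 55.9, 40.9, 68.1 and 36.9 TPM (-1.21, SE 0.23, limma adjusted p = 0.212). Neither overlapped between the groups. Cyp2c70, which makes muricholic acids in mice (-0.66, SE 0.26, unadjusted p = 0.0290), and Acox2, a peroxisomal oxidase of the bile acid side chain (-0.40, SE 0.17, unadjusted p = 0.0463), were the others. Both missed that threshold without controls 1 and 4 (Cyp2c70 at -0.30 with unadjusted p = 0.174, Acox2 at -0.21 with unadjusted p = 0.222). In that fit Cyp8b1 was at 0.99 (unadjusted p = 0.00148) and Cyp7a1 at -1.32 (unadjusted p = 3.46e-04).

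Of 18 regulators of transporter genes, 1 was higher and 0 were lower at an unadjusted p below 0.05, with a median of -0.068. The 1 was Nr0b2, which encodes SHP, an FXR-induced repressor of transcription. Nr0b2 was at 43.1, 25.0, 76.7 and 25.7 TPM in controls 1 to 4 and at 94.9, 92.3 and 107.1 TPM with oligo-1 (log2 fold change 1.33, SE 0.35, unadjusted p = 0.00412, limma adjusted p = 0.458). Every oligo-1 value exceeded every control, as in 2.0% of all tested genes. Without controls 1 and 4 the log2 fold change was 1.14 (SE 0.38, unadjusted p = 0.0160).

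The next lists give sex-biased genes, stress genes and markers of other cell types beside the transporters, with and without controls 1 and 4, and their part in the transporter differences was not tested. Of 13 tested NRF2 target genes, which answer oxidative and electrophile stress, 12 were fitted lower and 2 passed an unadjusted p below 0.05. Gsta2, a glutathione transferase, had 146.0 and 106.3 TPM in controls 1 and 4, against 6.89 to 24.3 TPM in the other 5 libraries, and Gsta4 had 132.4 and 129.8 TPM against 32.6 to 63.9 TPM. The median of the NRF2 list was -0.63 and became 0.15 without controls 1 and 4, where Gsta2 (-0.72, unadjusted p = 0.0960) and Gsta4 (-0.41, unadjusted p = 0.118) no longer passed.

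Of 13 male-biased liver genes, the pattern to which Slco1a1 belongs, 10 were fitted higher and 3 passed an unadjusted p below 0.05, with a median of 1.06 that became 0.039 without controls 1 and 4. Hsd3b5, a steroid dehydrogenase, had 0.48 and 0.14 TPM in controls 1 and 4, 19.8 and 72.4 TPM in controls 2 and 3, and 71.2 to 133.0 TPM with oligo-1. Elovl3, a fatty acid elongase, had 4.02 and 5.95 TPM in controls 1 and 4, 49.5 and 59.0 TPM in controls 2 and 3, and 70.1 to 109.9 TPM with oligo-1, and Ugt2b38, a glucuronosyltransferase, was the third (1.38, SE 0.57). In the fit without controls 1 and 4, Hsd3b5 was at 1.19 and Elovl3 at 0.60 on the log2 scale, both still at an unadjusted p below 0.05, and Ugt2b38 was at 1.14 (unadjusted p = 0.120). Of 18 female-biased genes 4 were tested and 1, the flavin monooxygenase Fmo2, was lower at an unadjusted p below 0.05 (-1.07, SE 0.47). Fmo2 was low in controls 1 and 4 (3.74 and 1.92 TPM, against 9.21 and 9.70 TPM in controls 2 and 3), and without them its difference grew to -1.81 (SE 0.29, unadjusted p = 1.84e-04). In that fit 4 of the 4 tested female-biased genes were fitted lower, 3 of them at an unadjusted p below 0.05, against 2.81% of all tested genes. The list median went from -0.63 to -1.93.

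Of the 10 Kupffer cell and macrophage markers, all tested and none at 0 in any library, 10 were fitted lower and 0 passed an unadjusted p below 0.05, and their TPM summed to 79.2 to 726.8 (control oligo) or 100.8 to 130.0 (oligo-1). The sums in controls 1 and 4 were 576.7 and 726.8 TPM. Cd5l, the one of smallest p, had a log2 fold change of -1.28 (SE 0.79) that became 0.24 without controls 1 and 4. Stellate cell and fibroblast markers summed to 367.5 and 339.1 TPM in controls 1 and 4, against 92.8 to 104.4 TPM in the other 5 libraries, 8 of 8 tested were fitted lower, and Rgs5 passed an unadjusted p below 0.05 (-1.18, SE 0.40). In the fit without controls 1 and 4, 5 of 7 stellate cell markers and 9 of 9 Kupffer cell markers were fitted higher (medians 0.22 and 0.48), and Rgs5 was at -0.54 (unadjusted p = 0.0888). Sinusoidal endothelial markers summed to 68.2 to 109.6 TPM (control oligo) or 86.6 to 104.9 TPM (oligo-1). Of 7 tested, 5 were fitted higher (median 0.21, and 0.41 without controls 1 and 4). The 1 that passed an unadjusted p below 0.05 was Lyve1, which was lower (-1.42, SE 0.42, unadjusted p = 0.00749, and -0.87 with unadjusted p = 0.0464 without controls 1 and 4).

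**Figure D4:**
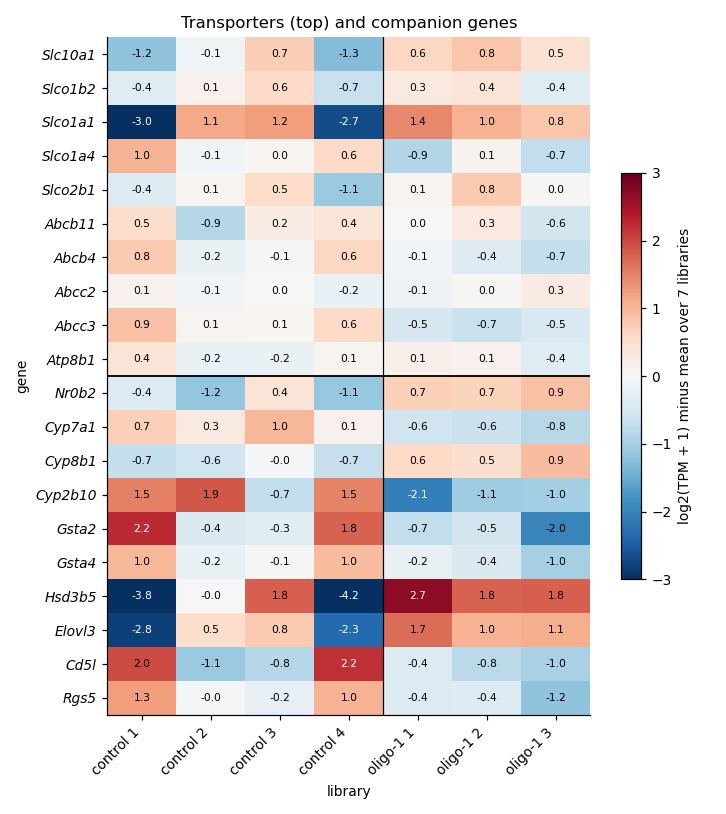
Log2(TPM + 1) of each gene (rows) in each library (columns) minus the mean of the gene over the 7 libraries, with transporters above the line and companion genes of the lists below it. Slco1a1 is lowest in controls 1 and 4 (about 3 log2 units below its mean), as are Hsd3b5 and Elovl3, while Abcc3, Gsta2 and Cd5l are highest there, and Abcc3 in the oligo-1 columns is lower than in all controls.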

How the data were processed

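RNA-seq measured liver mRNA of 7 mice (4 control oligo, 3 oligo-1), and groups and replicate numbers came from the names given to the libraries. The authors extracted RNA with TRIzol, quantified protein-coding genes with kallisto (version not given in the sources used here, build mm10) and deposited TPM values. The authors called genes with edgeR. A count model was planned only if the table held counts, and it held TPM, so limma 3.58.1 (R 4.3.3) with a mean-variance trend was used on log2(TPM + 1), 2-sided and without covariates, on the 10455 genes that reached a TPM of 1 in 3 or more libraries, with Benjamini-Hochberg adjustment over all of them. The log2(TPM + 1) scale understates the change of low genes. TPM keeps no depth, so no counting interval is given, and listed genes summed to 85.8% to 88.3% of the full TPM scale. Sequences and promoters came from RefSeq and positions from GENCODE M21.

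The 10 transporters and the 15 other lists were chosen with earlier results of these data known. Named from each list were up to 4 members of smallest unadjusted p below 0.05 or else the 1 of smallest p, and for the 3 transporters of smallest p the 3 genes of highest correlation. Alternatives were a pseudocount of 0.1, no filter, median scaling, rescaling without Mup genes, no trend, array weights, a replicate block, and leaving out libraries. The procedure was tested on simulated data.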

Additional observations from a re-analysis of the deposited data

Results flagged for a closer look

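In the control group, 1 library stood far from the other 3 in 3 of the 41 genes examined, and chance alone gives such a gap in about 1 in 20 groups. None of the 10 transporters was among the 3. Abcb1a had 0.37 TPM in control 2, against 1.13 to 1.23 TPM in controls 1, 3 and 4. Cyp8b1 had 79.8 TPM in control 3, against 49.8 to 54.0 TPM in controls 1, 2 and 4. Tat, a hepatocyte marker, had 2174 TPM in control 1, against 1727 to 1768 TPM in controls 2, 3 and 4.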

How the results depend on the processing

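Of the 10 transporters, 0 passed the adjusted threshold in the reported fit and in all alternatives but array weights, in which 7 did and 4766 genes were called. That fit gave weights of 0.17 and 0.21 to controls 2 and 3 and of 1.97 and 3.53 to controls 1 and 4, so on the control side it rests mainly on the libraries that stand apart. Genes called over the table numbered 0 in the reported fit, 1 without controls 1 and 4, and 0 to 29 with 1 library left out, the 29 without control 3. With the replicate block, which leaves control 4 without a partner and so without weight, 86 genes and 0 transporters were called. Same-numbered libraries did not deviate together (correlations of 0.078, -0.015 and -0.115). Because controls 1 and 4 stand apart, their contrast makes up much of the control deviations. The correlations therefore cannot exclude that same-numbered mice were paired, and the reported fit does not pair them.

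Without controls 1 and 4, the log2 fold change reversed in Slco1a1 (-0.076), Slco2b1 (-0.0049), Slco1b2 (-0.24), Abcb11 (0.23), Atp8b1 (0.16) and Cd5l (0.24), and with median scaling in Abcb11 (0.011) and Atp8b1 (0.074). With 1 library left out, Abcc2 ranged from -0.019 to 0.18, Abcb11 from -0.45 to 0.093, Atp8b1 from -0.14 to 0.11 and Nkg7 from -0.54 to 0.024. At an unadjusted p below 0.05, transporters lower numbered 3 in the reported fit (444 of 10455 genes) and 1 without control 1 (208 of 10164), without oligo-1 replicate 3 (185 of 10366) or without controls 1 and 4 (277 of 9872). Transporters higher numbered 1 in the reported fit (189 of 10455 genes), 4 with array weights (688), 2 with the replicate block (223), 0 with median scaling (447), and 0 to 3 with 1 library left out, the 3 without control 3 (273 of 10353). With 1 library left out, the unadjusted p reached 0.0918 for Slc10a1, 0.0973 for Slco1a4 and 0.138 for Abcb4. Abcc3 missed the p below 0.01 of the stricter rule when oligo-1 replicate 1 (0.0109) or 2 (0.0154) was left out, and in the latter fit Slco1a4 met it (0.00688). The cause of these changes was not tested. TPM holds no depth, so counting error could not be weighed.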

Other observations

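CAR and PXR target genes, which code for enzymes of drug and bile acid clearance, included 4 of 12 lower with oligo-1 at an unadjusted p below 0.05 and 0 higher. Of all tested genes, 4.25% were lower and 1.81% higher. The median log2 fold change was -0.48. Cyp2b10 was at 16.0, 20.7, 2.54 and 15.6 TPM in controls 1 to 4 and at 0.43, 1.85 and 1.95 TPM with oligo-1 (-2.40, SE 0.59, unadjusted p = 0.00245, limma adjusted p = 0.440). Cyp3a13 (-0.67, SE 0.18), Cyp3a25 (-0.74, SE 0.21) and Cyp3a11 (-1.63, SE 0.57) were the others. In all 4 the oligo-1 values lay below all controls, as in 4.98% of all tested genes. Without controls 1 and 4 the list had 7 of 11 lower at an unadjusted p below 0.05, against 2.81% of all tested genes. Its median was -0.56, and Cyp3a11 was at -0.56.

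Of 12 acute phase genes, 8 were lower at an unadjusted p below 0.05 (4.25% of all tested genes) and 0 were higher (1.81%), with a median of -0.79. Lcn2, an iron-siderophore binding protein, was at 60.8, 32.6, 11.9 and 84.9 TPM in controls 1 to 4 and at 3.54, 8.09 and 7.87 TPM with oligo-1. Orm2 (-1.17, SE 0.25), Saa1 (-1.62, SE 0.45) and Steap4 (-0.83, SE 0.24) were the others of smallest p. Without controls 1 and 4, 7 of 12 were lower at an unadjusted p below 0.05, against 2.81% of all tested genes, and the list median was -0.68. In that fit Lcn2 went from -2.45 to -1.54 and Steap4 to -0.48 on the log2 scale. Among hepatocyte markers, Fabp1 (1.04, SE 0.24) and Ttr (0.31, SE 0.13) were higher, and Tat (-0.39, SE 0.14) and Cps1 (-0.51, SE 0.23) were lower, at an unadjusted p below 0.05. Lymphocyte markers were at or near 0, with 1 of 7 tested (Nkg7, -0.20, SE 0.39), and of the cholangiocyte markers Sox9 had the smallest p (-0.16, SE 0.27).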
